A study of Mus musculus with 8 samples.

Results

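Ribosomal protein genes encode the protein subunits of the cytosolic ribosome, and they serve here as a set of broadly active promoters beside which SMAD4 binding can be read. The members were the protein-coding genes of the RefSeq mouse table (GRCm38.p6, the assembly behind mm10) whose symbol is Rpl or Rps with a number and at most 1 further letter, together with Rplp0, Rplp1, Rplp2 and Rpsa. This rule found 81 of 21887 protein-coding genes on 19 chromosomes: 47 of the Rpl series for the large subunit, 31 for the small subunit (Rpsa included) and the 3 stalk genes. The members were chosen by symbol, and no measured value enters the rule. Rps3a1, a small subunit gene whose symbol ends in a digit, falls outside the rule.

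SMAD4 ChIP-seq was done in MS1, an established mouse pancreatic islet endothelial line. All cells were starved of serum for 24 h. Unstimulated cells then had fresh medium alone, and stimulated cells had 1 ng/mL recombinant BMP9/10. Each condition had 2 SMAD4 immunoprecipitates (IP) and 2 input libraries. No genetic alteration is stated for either condition, but both stimulated IP titles end in KD and a replicate letter, and what KD stands for is not given. The authors merged the libraries of a condition before calling peaks, giving 1133 unstimulated peaks from 52971023 IP tags and 4333 stimulated peaks from 41044888. No peak therefore has a replicate error, and no difference between the conditions could be checked on replicates. All 8 samples came from 1 cell line and none is an RNA library, so how active each promoter was in these cells was not analysed here.

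As background, every growing cell needs ribosomal proteins in large and matched amounts. Their promoters are CpG-rich and active in nearly all cell types. Many of their transcripts begin with a C followed by a run of pyrimidines, the terminal oligopyrimidine tract, through which growth signals control their translation. SMAD4 joins the SMADs that receptors activate, which carry BMP signals from the membrane to the regulatory DNA of target genes such as those of the Id and inhibitory SMAD families.

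The promoters of the 3 members with a SMAD4 summit at a gene end, and that of Rpl12, whose peak lies beyond its gene body, are shown because all member peaks of the counts below belong to these genes. Each is the stretch of 180 bases before the RefSeq start site (GRCm38.p6) and 20 bases from it on, read on the gene's own strand. Capitals mark the longest run of pyrimidines that covers a base within 5 bases of the start site.
Rps10 (minus strand, chr17:27635225-27635424): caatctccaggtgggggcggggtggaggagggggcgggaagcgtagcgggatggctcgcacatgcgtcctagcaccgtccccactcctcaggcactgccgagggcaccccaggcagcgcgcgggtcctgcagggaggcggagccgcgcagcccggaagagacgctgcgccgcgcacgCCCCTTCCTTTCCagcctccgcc
Rpl34 (minus strand, chr3:130730379-130730578): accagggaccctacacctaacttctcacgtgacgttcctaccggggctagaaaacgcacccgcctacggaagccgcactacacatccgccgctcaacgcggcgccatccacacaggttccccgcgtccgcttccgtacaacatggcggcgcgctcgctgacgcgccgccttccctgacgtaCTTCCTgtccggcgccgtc
Rpl27 (plus strand, chr11:101442065-101442264): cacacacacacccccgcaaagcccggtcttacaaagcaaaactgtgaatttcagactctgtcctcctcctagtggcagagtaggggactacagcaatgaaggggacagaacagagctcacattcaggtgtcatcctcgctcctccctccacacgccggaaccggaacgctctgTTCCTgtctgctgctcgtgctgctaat
Rpl12 (plus strand, chr2:32961532-32961731): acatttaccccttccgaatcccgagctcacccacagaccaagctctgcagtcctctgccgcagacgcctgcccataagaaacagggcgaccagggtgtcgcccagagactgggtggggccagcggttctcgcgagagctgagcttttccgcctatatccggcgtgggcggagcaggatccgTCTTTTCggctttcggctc

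The first question was whether ribosomal protein promoters collect SMAD4 peaks. Without added ligand, 0 of the 81 genes had a peak summit within 1 kb of either gene end, a count that allows a share of up to 3.70% by 3 counts of the total (upper bound of the exact 95% interval 4.45%). Over all protein-coding genes the share was 0.877% (192 of 21887), which over 81 genes amounts to 0.711 genes. After BMP9/10, 3 of the 81 genes had such a summit (3.70%, exact binomial 95% interval 0.77 to 10.4), and the share over all protein-coding genes was 4.13% (904 genes), or 3.35 genes of 81. The member count stood near the background in both lists, so neither count sets ribosomal protein genes apart. Intervals here cover counting error only, and genes are not independent of each other.

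The 3 genes were Rpl27 and Rpl34, of the large subunit, and Rps10, of the small subunit. By subunit that was 2 of 47 Rpl genes (4.26%) and 1 of 31 small subunit genes (3.23%). The stimulated share of all genes amounts to 1.94 and 1.28 genes, so neither subunit stood apart. Among the stalk genes Rplp0, Rplp1 and Rplp2, whose proteins form the flexible arm that recruits translation factors, 0 had a gene-end summit in either list. Rpl3l, Rpl10l and Rpl39l, paralogs with expression restricted to tissues such as muscle or testis, also had 0, and their nearest stimulated summits lay 331, 2910 and 245 kb away. Over 3 genes the share of all genes amounts to 0.0263 genes unstimulated and 0.124 stimulated, so 0 of 3 sets neither group apart.

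All 3 gene-end summits lay at the start of the gene. The Rpl34 summit (chromosome 3, peak 130730197 to 130730430) lay 5 bp before the nearest RefSeq start site and 5 bp outside the gene body. The Rpl27 summit (chromosome 11, peak 101442181 to 101442342) lay 35 bp after the start site, inside the gene. The Rps10 summit (chromosome 17, peak 27635018 to 27635175) lay 110 bp after the start site, inside the gene. No other protein-coding gene had an end within 1 kb of these summits, and at Rps10 the lncRNA gene Gm15420 had one 110 bp away. These peaks therefore belonged to the ribosomal protein gene by both counting rules. The 1 kb limit decided nothing here: the next member beyond it in the stimulated list, Rpl12, was 3.04 kb from its nearest summit.

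Each of these peaks was of middling or low strength. Pileup is how many IP tags, each set to 100 bp, cover the summit. The authors' fold enrichment divides it by the local background (each plus 1). The background in tags was recovered here from those 2 values. At Rpl27 the pileup was 34 tags, or 0.828 per 1000000 IP tags, with a fold enrichment of 3.89 and a −log10 q of 7.73. Rpl34 had 25 tags (0.609 per 1000000), a fold enrichment of 4.33 and a −log10 q of 6.57. Rps10 had 17 tags (0.414 per 1000000), a fold enrichment of 4.74 and a −log10 q of 5.09. The order by pileup was thus the reverse of the order by fold enrichment. The recovered local background, which must then fall with pileup by arithmetic, was 8 tags at Rpl27, 5 at Rpl34 and 2.8 at Rps10. Among the 815 stimulated peaks within 1 kb of a coding gene end the median fold enrichment was 4.63 (interquartile range 3.8 to 5.71), and the fold enrichments at Rpl27, Rpl34 and Rps10 exceeded 27.6%, 42.1% and 53.3% of those peaks. By q the same peaks ranked 2136th, 2528th and 3128th of 4333. Their widths were 162, 234 and 158 bp, beside a median of 209 bp for stimulated gene-end peaks.

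**Figure D1:**
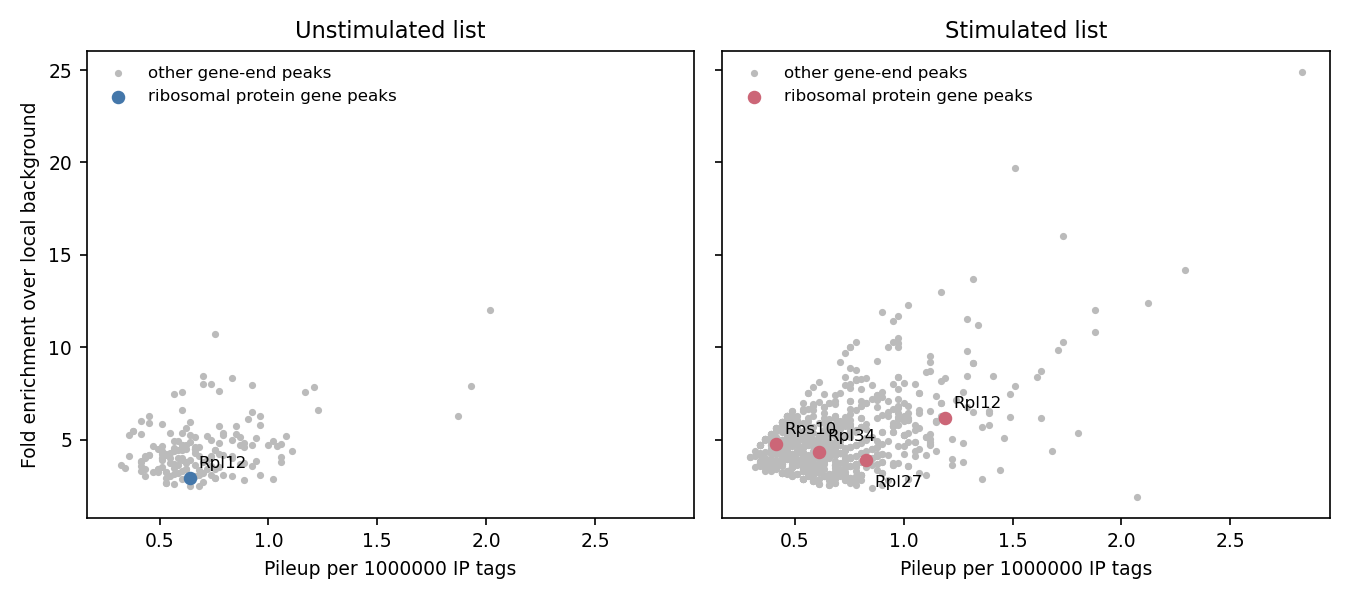
Fold enrichment over local background (vertical axis) against pileup per 1000000 IP tags (horizontal axis) for peaks within 1 kb of a protein-coding gene end (grey points) and for peaks counted for ribosomal protein genes (coloured, named points), with the unstimulated list on the left and the stimulated list on the right. The 3 stimulated gene-end peaks of members lie within the cloud of other gene-end peaks, between 0.414 and 0.828 per 1000000, and the Rpl12 peak, at 1.19 per 1000000, lies above them.

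None of these gene-end peaks had an unstimulated counterpart. Of all 4324 stimulated peaks outside mitochondrial DNA, only 1078 were paired with an overlapping unstimulated one, so lacking one was the common state. The nearest unstimulated summits were 188 kb from Rpl27, 529 kb from Rps10 and 5500 kb from Rpl34. A site missing from the unstimulated list was below the authors' threshold, and its pileup is not known. At the unstimulated depth the same pileup per tag would amount to 43.9 tags at Rpl27, 32.3 at Rpl34 and 21.9 at Rps10. The lowest pileup among the 165 unstimulated gene-end peaks was 17 tags, so values of that size could be called where the local background was low. Shortened to the 1133 peaks of highest −log10 q, the length of the unstimulated list, the stimulated list left 0 member genes with a gene-end summit (0.941% of all genes).

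Counting each peak for its nearest gene gave shares below those of all genes. Without ligand, 1 of the 81 genes, Rpl12, was the nearest gene to a summit within 100 kb (1.23%, interval 0.0313 to 6.69), against 3.79% of all protein-coding genes. After BMP9/10 there were 4 (Rpl12, Rpl27, Rpl34 and Rps10; 4.94%, interval 1.36 to 12.2), against 12.2% of all protein-coding genes. The remaining 77 members were counted by neither rule in either list.

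This second count depends on how much sequence lies closer to a gene than to any other. Territory is defined here as the gene body plus the bases nearer to that gene than to another protein-coding gene, up to 100 kb away. The median territory was 11.6 kb (interquartile range 5.54 to 22.0) for ribosomal protein genes and 45.8 kb (20.6 to 110) for all protein-coding genes, and 68 of the 81 members (84.0%) were below the latter. Median gene length was 3.17 kb against 17.2 kb. With the shares of all genes taken within 10 bins of territory and weighted to the members' spread over those bins, the background became 1.85% unstimulated and 6.72% stimulated, or 1.5 and 5.45 genes of 81. The member counts of 1 and 4 were closer to these values than to the unweighted 3.07 and 9.91 genes. The unstimulated interval (0.0313 to 6.69%) covers both backgrounds, and the stimulated one (1.36 to 12.2%) ends at about the unweighted 12.2%. Whether territory accounts for the lower shares was not tested. For the gene-end count the same weighting moved the background only to 0.842% and 4.02%.

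**Figure D2:**
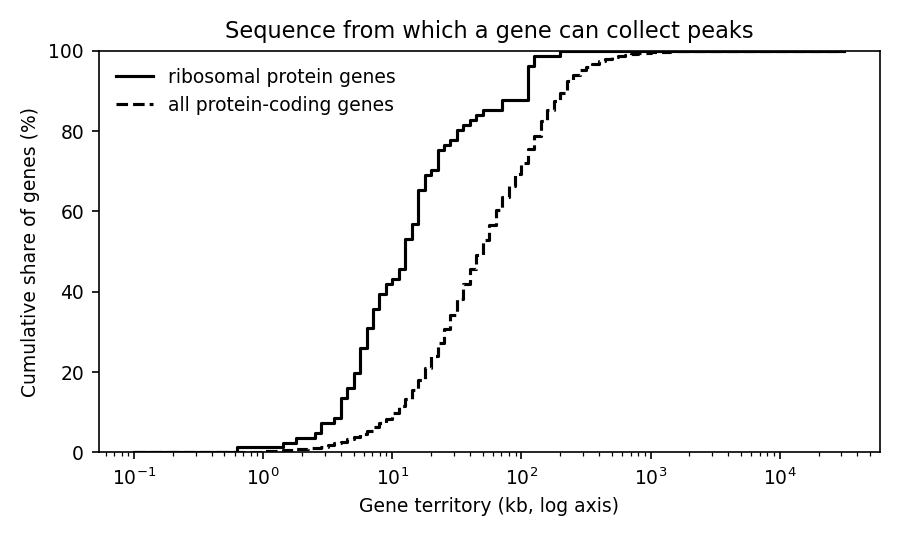
Cumulative share of genes (vertical axis, %) by gene territory (horizontal axis, kb, log scale) for the 81 ribosomal protein genes (solid line) and all 21887 protein-coding genes (dashed line). The solid line lies to the left over most of the range, with medians of 11.6 and 45.8 kb.

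Rpl12 was the member with a SMAD4 peak in both lists. It encodes a protein at the base of the ribosomal stalk. Its peak lay outside the gene body, 3.04 kb from the nearer gene end and 5368 bp after the start site in the stimulated list (chromosome 2, 32966863 to 32967374). The unstimulated peak (32966989 to 32967157) had 34 tags, 0.642 per 1000000, a fold enrichment of 2.92 and a −log10 q of 3.89. The stimulated peak had 49 tags, 1.19 per 1000000, a fold enrichment of 6.17 and a −log10 q of 20.1. The stimulated peak was thus the higher and the wider one, at 512 bp against 169 bp.

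Within its list the unstimulated Rpl12 peak was weak, above 11.2% of the 1133 peaks by fold enrichment. The stimulated one was strong, above 82.1% of the 4333. The ratio of pileup per tag, stimulated over unstimulated, was 1.86 (exact binomial interval on the pileups 1.18 to 2.97). Over all 1078 shared pairs outside mitochondrial DNA the median ratio was 1.47 (interquartile range 1.29 to 1.68), and 91.3% of them had a lower ratio than Rpl12. The interval at Rpl12 covers that median. The local background per 1000000 IP tags was 0.208 unstimulated and 0.173 stimulated. No other protein-coding gene was as near to this summit, and whether the site acts on Rpl12 was not tested.

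Distances from every member to its nearest summit, whichever gene that peak was nearest to, had medians close to those of all genes. In the unstimulated list the median distance was 775 kb (interquartile range 202 to 1680) for members and 785 kb (245 to 2050) for all genes with a peak on their chromosome. In the stimulated list it was 179 kb (79.0 to 376) and 183 kb (51.3 to 547). In wider windows the stimulated share of members was below that of all genes: 9.88% against 16.0% within 25 kb, 21.0% against 24.6% within 50 kb and 33.3% against 36.3% within 100 kb. The unstimulated share was above it: 4.94% against 4.61%, 11.1% against 7.64% and 16.0% against 13.0%. Within 10 kb of a gene end there was a stimulated summit at 6 members (7.41%), against 9.91% of all genes. They included the 4 genes already named and Rpl35 at 4.29 kb. The peak near Rpl35 was nearest to Wdr38 (fold enrichment 4.15).

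Some members shared their neighbourhood with an unstimulated summit at a distance. Rplp2 lay 10.9 kb and Rplp0 24.4 kb from one. Rplp0 (24.4 kb), Rpl26 (29.6 kb) and Rplp1 (33.7 kb) had the same rounded distance in both lists. So did members further off: Rpl4 (79.0 kb), Rpl32l (104 kb), Rpl14 (202 kb), Rps19 (283 kb), Rpl22 (314 kb), Rpl3l (331 kb) and Rps2 (346 kb). The share of all genes with equal distances was not counted. Of the 1130 unstimulated peaks outside mitochondrial DNA, 1078 were paired with an overlapping stimulated one. Equal distances therefore do not set these members apart. At the other extreme 6 members had no stimulated summit within 1000 kb. Among them Rpl39, on the X chromosome, was 4970 kb from its nearest one and Rps6, the substrate of the S6 kinases, 1590 kb. Within 1000 kb there was a stimulated summit for 92.6% of members and 85.5% of all genes, so such distances do not mark members. The genes with ribosomal protein-like symbols outside the rule had 0 peaks by either count: Rps3a1, Rpl22l1, Rpl36al and Rpl7l1.

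Ribosomal protein genes have many near-identical processed copies, and how tags that match several places were treated is not stated, so tags could be shared between a member and its copies. The RefSeq table held 318 pseudogenes named for a ribosomal protein gene. A summit lay within 1 kb of an end of 1 of them unstimulated (Rps15a-ps4) and of 2 stimulated (Rps15a-ps4 and Rpl36-ps6), or 0.314% and 0.629%. Over all 10429 pseudogenes the shares were 0.0384% and 0.249%. The parent genes Rps15a and Rpl36 had no summit closer than 376 and 200 kb in the stimulated list.

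**Figure D3:**
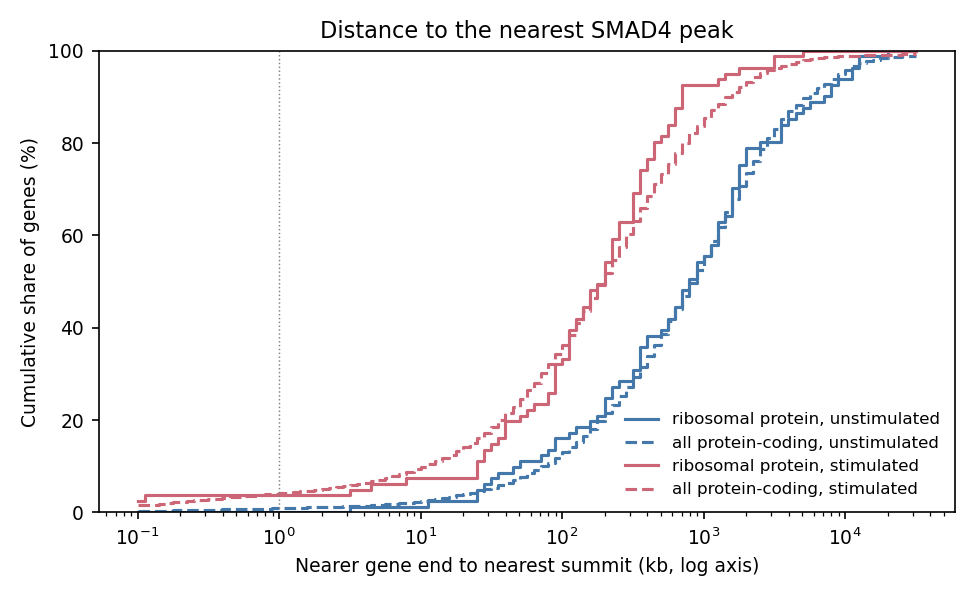
Cumulative share of genes (vertical axis, %) by distance from the nearer gene end to the nearest SMAD4 summit (horizontal axis, kb, log scale) for ribosomal protein genes (solid lines) and all protein-coding genes (dashed lines), with the unstimulated list in blue, the stimulated list in red and a dotted line at 1 kb. Within each list the solid and dashed medians lie close together, at 775 and 785 kb and at 179 and 183 kb.

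What members share beyond their symbol was also described. Of the 81 genes, 29 (35.8%) had another protein-coding gene's end within 1 kb of one of their own, against 24.8% of all protein-coding genes, and Rpl12 was one of them. A small nucleolar RNA, a class of guide RNAs that modify ribosomal RNA, was encoded inside 29 members (35.8%), against 1.70% of all genes. Rpl4 held 5 of them, the highest number. Rpl27, Rpl34 and Rps10 held none, and Rpl12 held 1.

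Start site sequences were found for 61 of the 81 members (73 entries in the RefSeq promoter table) and for 17492 of all protein-coding genes (21263 entries). With the start site alone in place of either gene end, 0 of 61 members had an unstimulated summit within 1 kb (0.789% of all genes) and 3 of 61 had a stimulated one (4.92% against 4.37%). A C at the start site followed by pyrimidines, at least 5 in a row, was present in 14 of 73 member entries (19.2%) and in 2.21% of all entries. Rps10, as printed above, has 10 pyrimidines from the start site on, within a run of 13. The Rpl34 entry nearest its summit and the Rpl27 entry have shorter runs, of 6 and 5. That of Rpl34 begins 1 base after the start site, and that of Rpl27 begins 7 bases before it and ends before it. Rpl34 has a second entry, not printed, with its start site at 130730337 and a run of 20. That run begins 17 bases before the start site, with 3 pyrimidines from the start site on, the first of them not a C. Rpl12 has a run of 7 that begins 1 base after its start site. By the annotated start base, the genes with a gene-end peak thus included entries with and without a pyrimidine start. This call rests on the exact RefSeq start base, so an entry placed a few bases off could fail it. A run of at least 5 pyrimidines reaching within 5 bases of the start site was in 50.7% of member entries. Among all entries the share was 32.7%.

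Motifs of 5 to 7 letters were searched on both strands of the full 300-base entries, from 250 bases before the start site to 50 from it on. None of the motifs contains another. CAGAC, the core of the SMAD box, was in 35 of 73 member entries (47.9%) and in 48.4% of all entries. The GC-rich element GGCGCC, which BMP-activated SMADs bind, was in 15 member entries (20.5%) and in 15.3% of all. Of the 907 entries with a stimulated summit within 1 kb, 40.0% held GGCGCC and 48.8% held CAGAC. The ETS factor core CCGGAAG was in 26 member entries (35.6%), 11.6% of all entries and 25% of those with a stimulated summit. AAGATGG, part of the YY1 motif, was in 15.1% of member entries and 6.24% of all, and TATAAA was in 9.59% and 12.6%. Entries of mitochondrial ribosomal protein genes had shares like those of members for the ETS core (34.7%) and AAGATGG (17.3%). Their shares were higher for GGCGCC (30.7%) and CAGAC (57.3%) and lower for TATAAA (6.67%). Of these 75 entries, 0 had a C at the start site followed by a pyrimidine run as defined above.

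Among the members with a gene-end peak, both Rpl34 entries held GGCGCC at 2 positions and no CAGAC, and the unprinted one also held 1 CCGGAAG. Rpl27 held CAGAC at 2 positions and no GGCGCC. Rps10 held neither and 1 CCGGAAG. Rpl12 held 2 CAGAC. Median GC content was 57.7% in member entries, 56.3% in all and 65.3% in entries with a stimulated summit, and the median ratio of observed to expected CpG was 0.862, 0.567 and 0.844. These matches describe letters in a window and not sites of binding.

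Lists of other broadly active genes, most of them of protein synthesis, gave a range of shares. Over all protein-coding genes the gene-end shares were 0.877% unstimulated and 4.13% stimulated. The stimulated share amounts to 3.22 of 78 genes, 1.57 of 38, 1.61 of 39 and 1.45 of 35. Genes of mitochondrial ribosomal proteins, which serve the separate ribosome of mitochondria, had a gene-end summit at 2 of 78 (2.56%) unstimulated and at 7 (8.97%, interval 3.68 to 17.6) stimulated. Ribosome biogenesis genes had 0 and 2 of 38 (Gar1 and Nop14 in the stimulated list), and genes of the proteasome, which degrades proteins, 0 and 2 of 39 (Psmc4 and Psmd12). The translation factor list, which also holds Tpt1, a gene of no translation factor, had 0 of 35 unstimulated and 7 of 35 stimulated (exact interval 8.44 to 36.9%). These 7 were Eif1, Eif3d, Eif4a2, Eif4g1, Eif4g2, Pabpc1 and Tpt1. Tpt1 and Pabpc1, whose transcripts carry an oligopyrimidine start like those of ribosomal proteins, had fold enrichments of 3.26 and 4.5. Eif4g2, Eif4a2, Eif1, Eif4g1 and Eif3d had 4.05, 4.64, 4.71, 5.01 and 5.37, and the median of all stimulated gene-end peaks was 4.63. Of 20 BMP target genes, 4 had a gene-end summit unstimulated and 7 stimulated, led by Smad6 with a stimulated fold enrichment of 13.0. The shares of all genes amount to 0.175 and 0.826 of these 20. Id1, Id2, Id4 and Msx1 were counted by the nearest-gene rule only. The BMP target list, like the others, was chosen with earlier results of these data known. It is therefore no independent check that the counting finds SMAD targets. The differences between these lists and the ribosomal protein genes were not tested.

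**Figure D4:**
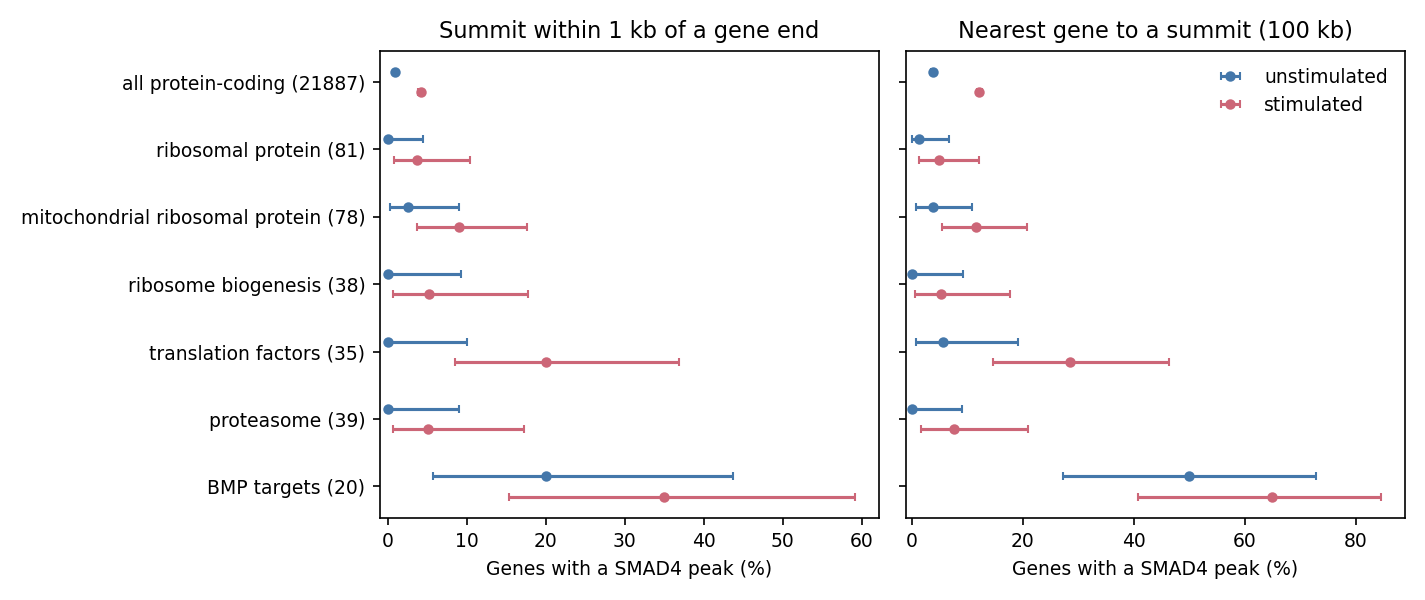
Share of genes with a SMAD4 peak (horizontal axes, %) for all protein-coding genes and 6 gene lists (rows, number of genes in brackets), counted by a summit within 1 kb of a gene end (left) and as the nearest gene within 100 kb (right), in the unstimulated (blue) and stimulated (red) list. Points are shares and bars are exact binomial 95% intervals. Ribosomal protein genes lie near all genes on the left (0 and 3.70% beside 0.877% and 4.13%) and below them on the right (1.23% and 4.94% beside 3.79% and 12.2%), and BMP targets lie highest in each panel and condition.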

How the data were processed

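SMAD4 IP and input DNA of MS1 cells were sequenced from 8 samples in 4 groups of 2. The authors called peaks with MACS2 2.1.0.20140616 on merged libraries (q cutoff 0.01, 1 tag kept per position), per the file headers. Tags were set to 100 bp, below the tag sizes of 146 bp unstimulated and 140 bp stimulated. The band width was 300 for the unstimulated list and 200 for the stimulated one. The genome build was mm10, per the submitters' processing notes, and an aligner was not given in the sources used here. The authors deposited pileup, a coverage signal not scaled to depth, −log10 q of IP against input, the fold enrichment ratio, and positions in bp.

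Summits were joined to RefSeq genes (GRCm38.p6) by distance to either gene end (1 kb) or nearest gene body (100 kb, ties kept) with pandas 2.3.3. Pileups were divided by the IP tags of their list. Shared peaks overlap by at least 1 bp, with closest summits paired. Intervals are exact (Clopper-Pearson, scipy 1.17.1). The counting was tested on 200 planted peaks: all 200 were found by the nearest-gene rule and the 100 among them near a gene end by that rule. They lay beyond the ends of genes with free flanks. Close neighbours, ties and summits inside genes were therefore not tried. Named genes were every member counted, those next to the 1 kb limit and the restricted paralogs (3 of the 4 listed are in the table). Other genes were named after their values were seen. The members and lists were chosen with earlier results of these data known. Counts stand beside those of all genes with no test.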

Additional observations from a re-analysis of the deposited data

How the results depend on the processing

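The unstimulated gene-end count of 0 was the same under all 7 alternatives tried. The stimulated gene-end count of 3 was the same within 500 or 2000 bp, with any base of the peak in place of the summit, at start sites alone and without the restricted paralogs. It was 0 with a −log10 q of at least 10 (1.27% of all genes) and in the shortened list (0.941%), and 1 without peaks under 200 bp wide (2.24%). The nearest-gene count of 1 unstimulated gene became 0 with a −log10 q of at least 10 (1.38%) and without peaks under 200 bp (1.73%). The stimulated count of 4 became 1 with that q limit (5.07%), 1 in the shortened list (3.87%) and 2 without narrow peaks (7.18%). These alternatives hold fewer peaks by construction, and the share of all genes fell with them. Limits of 50000 and 10000 bp, or letting all genes compete, left these counts the same. The Rpl12 ratio was 1.86 under each pairing rule.

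No paired analysis was possible because the authors pooled the libraries of each condition, and leaving out single replicates was likewise impossible from merged lists. Pooling and the number of tags limit what a missing peak shows: it was below the calling threshold.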
